A study of Mus musculus with 40 samples.

Results

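The genes described here are the cytochrome P450 (Cyp) genes. They were taken as every protein-coding gene whose symbol begins with Cyp and a family number, with or without a subfamily letter. A mean of at least 0.5 counts in 1000000 (CPM) over the libraries of a tissue was also required. Cyp2e1 and Cyp2f2 were not analysed here. Of 100 protein-coding Cyp genes in the count table of the kidney, 48 met this rule, among 55382 genes in all, and 22 of 100 met it in the aorta, among 55335. All 22 aortic members were also members in the kidney. Just inside the threshold were Cyp2j8 (0.501 CPM), Cyp2c68 (0.502 CPM) and Cyp2t4 (0.502 CPM) in the kidney, and just outside were Cyp2d10 (0.427 CPM) and Cyp2c38 (0.423 CPM). In the aorta, Cyp2b10 (0.778 CPM) was the lowest member and Cyp2ab1 (0.453 CPM) the highest gene left out. Outside chromosome 9, 10 further Cyp genes had 0 counts in every kidney and 33 in every aorta.

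P450 enzymes are haem proteins that insert oxygen into lipophilic substrates, with electrons that reach them from P450 reductase in the endoplasmic reticulum or from adrenodoxin in mitochondria. Some families build or break down signals: vitamin D, retinoic acid, sterols and oxygenated fatty acids. Others clear drugs and foreign compounds, mostly in the liver. In the kidney, Cyp4a enzymes hydroxylate the end of the arachidonic acid chain and Cyp2c and Cyp2j enzymes make epoxides from it, and both kinds of product act on vessel tone and salt transport. The proximal tubule also makes active vitamin D through Cyp27b1 and degrades it through Cyp24a1.

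RNA was sequenced from aortas and kidneys of C57BL/6 mice, in 4 groups of 5 libraries per tissue, 40 libraries in all. In the knockout (KO), a Cre recombinase under the Tek (Tie2) promoter deleted the floxed gene of the epidermal growth factor receptor (Egfr) in endothelial cells, and this promoter is also active in blood-forming cells. Wild-type (WT) controls had no loxP sites and carried the same Cre. Mice of both genotypes received a standard diet (SFD, 10% of energy from fat) or a high fat diet (HFD, 60%) over 18 weeks, beginning when they were 6 weeks old. Sex and hour of collection are not given in the sources used here. The question put to these genes was whether diet, loss of endothelial Egfr, or both together moved them in either tissue.

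Libraries held 19643033 to 48833447 counts in kidneys and 17520161 to 36452741 in aortas. The KO HFD kidney a1 and the WT HFD kidney a12 were closer to each other than sampling noise allows (their median chi-square was 0.0242, with 1.70 in the next pair), and so did the WT SFD aorta R-1 and the KO SFD aorta R-12 (0.0255). In each pair, 1 library may have been deposited under 2 labels, or mislabelled, so that a group of 5 may hold 4 samples of its own and the WT HFD and KO HFD kidneys, or the WT SFD and KO SFD aortas, may share one. Both pairs were also the deepest libraries of their tissue, with 48788716 (a1) and 48833447 (a12) counts in kidneys and 36419598 (R-1) and 36452741 (R-12) in aortas. The next deepest were a16 with 31369285 and R-11 with 23683293 counts. How the pairs arose was not tested. The labels of these 4 libraries differ, so they stayed in, and the counts of calls are also given without both members of a pair. Levels are given as FPM, counts in 1000000 of the library size after TMM normalisation. Egfr, counted over the whole gene, stood at 56.3 ± 5.81 FPM (SD, n = 5) in WT SFD and 53.1 ± 4.33 FPM (SD, n = 5) in KO SFD kidneys, and at 39.6 ± 8.93 and 44.0 ± 5.70 FPM (SD, n = 5 each) in the aortas. Cells other than endothelium also express Egfr, and KO against WT was not called in either tissue, so these levels do not check the genotype labels. Genes of proximal tubule (Kap, the kidney androgen-regulated protein, at a mean of 21955 FPM) and of smooth muscle (Acta2 at 21786 FPM) marked the 2 tissues as labelled. Genes on chromosome 9 were at 0 in every library, so Cyp1a1, Cyp1a2, Cyp8b1, Cyp11a1 and Cyp19a1 were not analysed here.

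Members took 0.952% of all counts in the kidney (range over 20 libraries 0.856 to 1.14%) and 0.0440% in the aorta (0.0369 to 0.0544%). Per length of exon, the kidney was led by Cyp4b1, a fatty acid and xenobiotic hydroxylase, at 1838 ± 200.3 FPM per kb (SD, n = 20) and by Cyp2j5, an arachidonic acid epoxygenase of the tubule, at 725 ± 33.1 FPM per kb. These 2 genes held 61.3% of the FPM of all 48 members, and the 5 highest held 75.0%. Next per length came Cyp2a4 at 369 ± 111 FPM per kb and Cyp4a10 at 136 ± 27.5 FPM per kb. Their ranges over the 20 kidneys, 217 to 657 and 101 to 190 FPM per kb, did not overlap, and neither did those of Cyp4b1 (1528 to 2347) and Cyp2j5 (671 to 772). Below them the order was close. Cyp2d26, the highest Cyp2d member, stood at 100.2 ± 50.5 FPM per kb, Cyp7b1 at 80.5 ± 32.9, Cyp24a1 at 66.9 ± 53.3 and Cyp51 at 55.3 ± 15.5 FPM per kb, each within the range of the next. Of the 48 members, 7 were over 100 FPM per kb, 20 over 10 and 13 under 1.

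The highest members of the other subfamilies in the kidney were lower. Cyp27a1, the mitochondrial sterol hydroxylase, had 25.4 FPM per kb, Cyp2c23, the main epoxygenase of the rodent kidney, 15.5, Cyp4f13 9.39 and the orphan Cyp20a1 7.35 FPM per kb. Cyp1b1 (4.64 FPM per kb), Cyp2s1 (3.17), Cyp27b1 (2.82), Cyp39a1 (2.81), Cyp26b1 (1.54) and Cyp4v3 (1.23) followed. Below 1 FPM per kb were Cyp2u1 (0.894), Cyp46a1 (0.786), Cyp2r1 (0.542), Cyp2b9 (0.522), Cyp2t4 (0.305), Cyp26a1 (0.260) and Cyp3a13 (0.182). Enzymes of steroid hormone synthesis had no member, and the highest of them in the kidney, Cyp17a1, had a mean of 0.206 CPM.

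**Figure D1:**
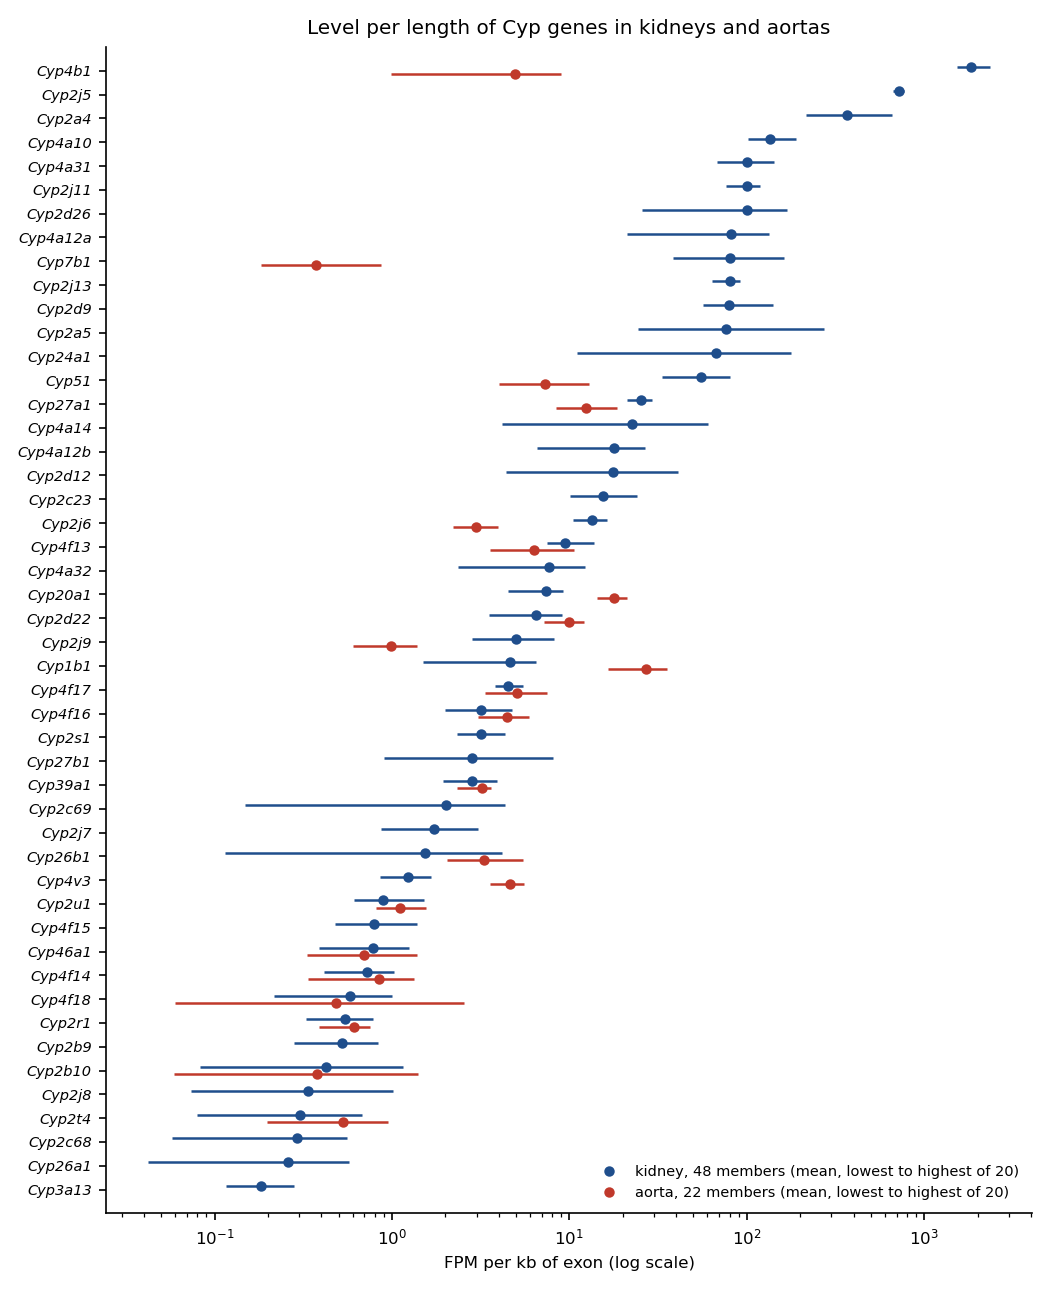
Level of each member in FPM per kb of exon (log axis), mean and range over the 20 libraries of a tissue, with 48 members in kidneys (blue) and 22 in aortas (red). Cyp4b1 at 1838 and Cyp2j5 at 725 FPM per kb lead in the kidney, and Cyp1b1 at 26.9 FPM per kb leads in the aorta.

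HFD moved Cyp genes of the kidney in both directions. In WT kidneys 13 of 48 members were called (edgeR quasi-likelihood test, adjusted p under 0.05), with Cyp2c69, Cyp24a1, Cyp4a14, Cyp2d26, Cyp4f16 and Cyp2d22 higher and Cyp2j8, Cyp2b10, Cyp2d12, Cyp4a12a, Cyp7b1, Cyp2j9 and Cyp51 lower. In KO kidneys 10 members were called, and all 10 were among those 13, with the same sign. Cyp4a14, Cyp4a12a and Cyp2j9 were called in WT alone, but the difference between genotypes was not called for any of them. The called share was 27.1% of members in WT, against 6.71% of all 15943 genes tested, and 20.8% in KO, against 6.34%. By direction, 3.03% of all genes were called higher and 3.68% lower in WT, and 3.16% and 3.18% in KO. Averaged over genotypes, 20 members were called, 8 higher and 12 lower (41.7%, against 16.4% of all genes, 7.7% higher and 8.7% lower). The groups of 5 did not overlap for 12 of the 13 members called in WT and for 7 of the 10 called in KO. These members were called on the same values, so the lack of overlap adds no separate support. The share without overlap among all genes was not counted.

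The members had no common direction. Across the 48, the median on the log2 scale was 0.04 for WT and -0.04 for KO, while the median size of the change, without its sign, was 0.43 and 0.42, against 0.16 for all genes tested in each genotype. The sign was the same in both genotypes for 40 of 48, with a1 and a12 included. This share was not counted without the pair or among all genes. The DESeq2 Wald test called 16 members in WT, 13 in KO and 24 on average. With the further limits used by the study (more than 1.5-fold and above 5 FPM, the latter read here as the mean of at least 1 of the groups), 11, 7 and 11 were called, against 2.18%, 2.16% and 2.92% of all genes. Without a1 and a12, 14, 9 and 19 were called, and 12 of the 13 WT calls and 8 of the 10 KO calls were kept. Without the filter on low counts the WT calls of Cyp4a12a, Cyp7b1 and Cyp2d12 and the KO call of Cyp2j8 were lost, and with only the 2 groups compared in the fit the WT calls of Cyp2j8 and Cyp2j9 and the KO call of Cyp2d12. Cyp2j8 and Cyp2b10 had means under 0.5 FPM in both HFD groups, so they are members through the SFD groups in which they were higher. Among the 41 members with a mean of at least 1 CPM, which leave out both, 11 were called in WT, 8 in KO and 18 on average. In whole kidneys, fewer cells of a type and less RNA per cell cannot be told apart.

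**Figure D2:**
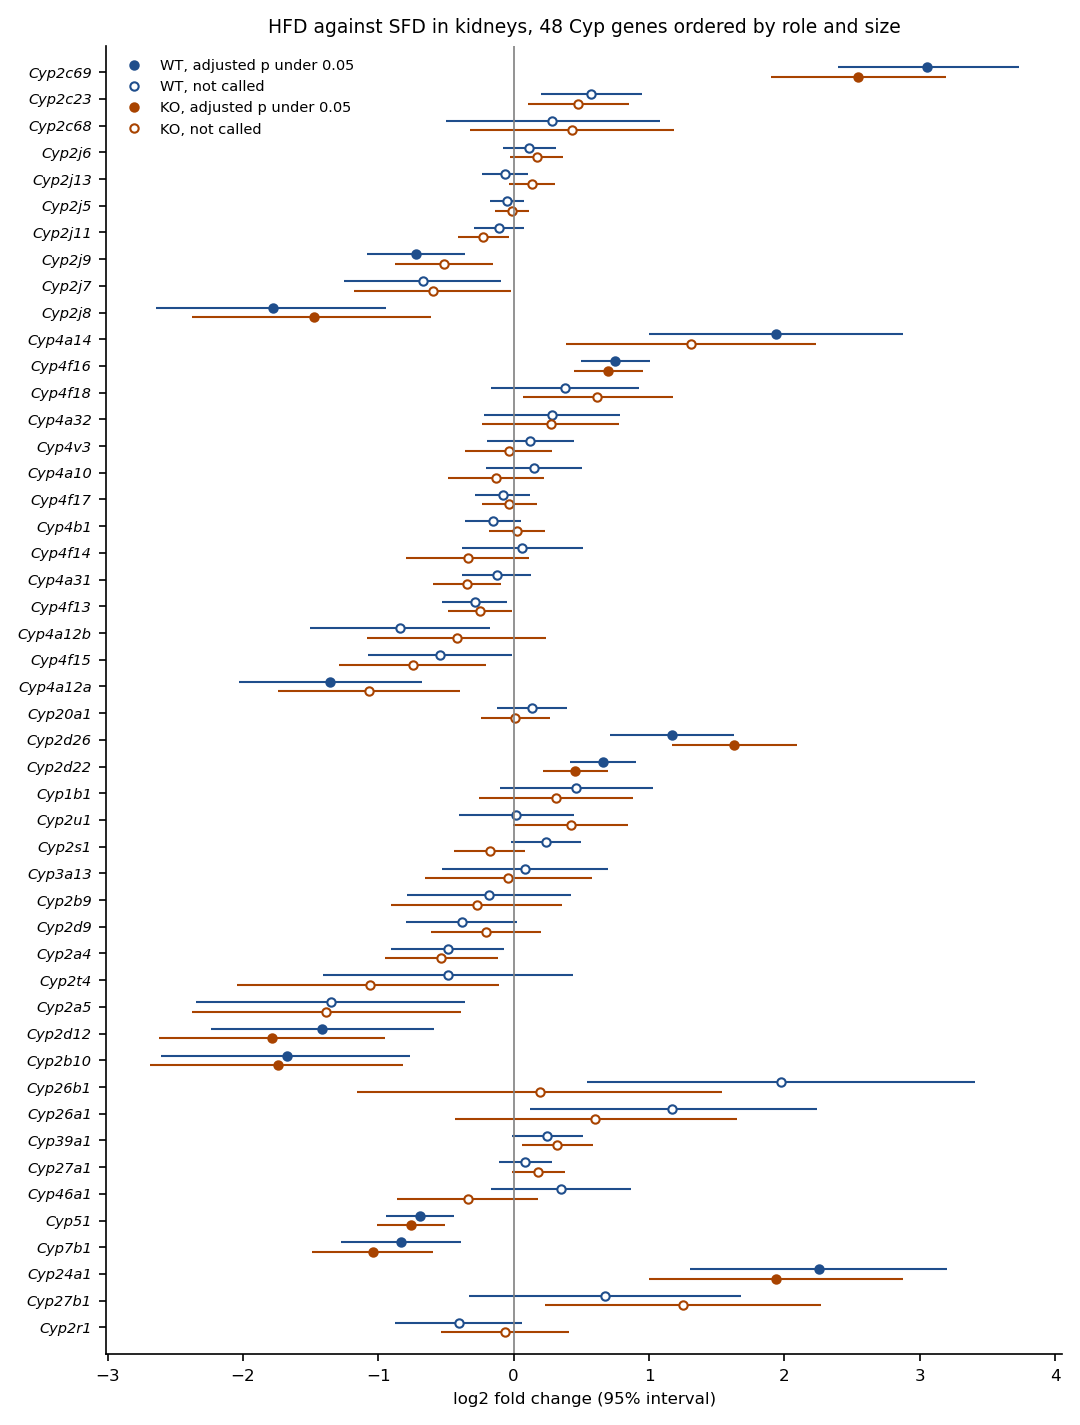
Log2 fold change of HFD against SFD for the 48 kidney members by role, in WT (blue) and KO (orange), with 95% intervals and filled symbols where the adjusted p was under 0.05. Cyp2c69 lies farthest to the right (3.06 in WT, 2.54 in KO), and the called members fall on both sides of 0.

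The clearest change was in Cyp2c69 (ENSMUSG00000092008, chromosome 19, 39842814 to 39886799, minus strand), a Cyp2c monooxygenase. It stood at 0.899, 0.472, 0.525, 0.685 and 0.869 FPM in the 5 WT SFD kidneys and at 3.79, 6.82, 5.12, 5.95 and 7.31 FPM in the WT HFD kidneys. In KO, the SFD kidneys had 1.32, 0.991, 1.77, 0.252 and 1.08 FPM and the HFD kidneys 7.02, 5.53, 6.21, 5.21 and 7.45 FPM. Every HFD kidney lay above every SFD kidney of either genotype. HFD against SFD gave a log2 fold change of 3.06 (SE 0.32, adjusted p = 5.05e-06) in WT and 2.54 (SE 0.31, adjusted p = 2.49e-05) in KO by the edgeR test, and it was called under each of the alternatives run. Since 36.3% of its 100-base windows also occur in another gene, most of them in Cyp2c40 (29.5%), reads of these genes could be split in counting. Cyp2c40 itself had 0 to 0.18 FPM in SFD and 0.077 to 0.527 FPM in HFD kidneys. The neighbour Cyp2c68 (chromosome 19, 39688834 to 39741054), with 19.8% of its windows shared, had 0.353 ± 0.201 FPM in WT SFD and 0.429 ± 0.0731 FPM in WT HFD (SD, n = 5 each), which on the log2 scale is 0.28 (95% interval -0.50 to 1.08). In KO it had 0.298 ± 0.0875 FPM per kb under SFD and 0.409 ± 0.146 under HFD (SD, n = 5 each). Its mean of 0.502 CPM is just inside the threshold, and both WT means were under 0.5 FPM. The difference in response between the 2 genes was not tested.

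The sequences before the starts of both genes are shown because Cyp2c69 was called under HFD and its neighbour Cyp2c68 was not. They are RefSeq promoters of GRCm38.p6 on the minus strand, at chr19:39886800-39887019 for Cyp2c69 and chr19:39741102-39741351 for Cyp2c68. Capitals mark CAAAGTCCA, a motif of the hepatocyte factor HNF4A, and AGTTCA, a half-site of nuclear receptors such as the pregnane X receptor.
Cyp2c69: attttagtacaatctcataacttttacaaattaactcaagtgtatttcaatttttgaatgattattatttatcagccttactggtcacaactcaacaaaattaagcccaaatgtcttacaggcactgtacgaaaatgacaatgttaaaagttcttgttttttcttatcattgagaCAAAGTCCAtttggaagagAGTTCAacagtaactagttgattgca
Cyp2c68: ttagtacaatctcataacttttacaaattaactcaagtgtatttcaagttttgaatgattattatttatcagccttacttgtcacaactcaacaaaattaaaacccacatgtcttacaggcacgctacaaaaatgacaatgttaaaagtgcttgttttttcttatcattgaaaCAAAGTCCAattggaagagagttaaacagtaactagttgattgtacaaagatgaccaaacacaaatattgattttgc
At an offset of 2 bases and with no gaps, 142 of 218 positions were identical (65.1%). Cyp2c68 has an extra base after the run acaaaattaa, and without gaps the bases before it were compared out of register. This share is therefore too low as a measure of how alike the sequences are. CAAAGTCCA began 75 bases before the RefSeq start of Cyp2c69 and 77 before that of Cyp2c68, and it occurred on either strand in 0.384% of 32851 promoters. AGTTCA was found 56 bases before the start of Cyp2c69 and on neither strand in the window of Cyp2c68, and 11.8% of all promoters held it.

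The Cyp2c23 gene (chromosome 19, 44005022 to 44029208), a major source of epoxyeicosatrienoic acids in the rodent kidney, was higher by less. Its levels were 39.4, 26.2, 23.9, 22.1 and 21.7 FPM in WT SFD and 51.7, 30.1, 35.1, 41.2 and 40.6 FPM in WT HFD. KO kidneys had 33.7, 33.4, 26.1, 22.1 and 26.0 FPM under SFD and 29.7, 47.6, 41.4, 44.8 and 33.3 FPM under HFD. The groups overlapped in both genotypes, in WT through the kidney a16 alone. It was called on average (log2 fold change 0.52, SE 0.13, adjusted p = 0.00649 by edgeR), while neither genotype was called (0.57 and 0.48, adjusted p = 0.060 and 0.131). Without a1 and a12 the WT comparison was also called (0.66, adjusted p = 0.0248).

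Among the 7 Cyp2j epoxygenases, 3 were lower on average and 0 higher. Cyp2j8 fell from 0.871 ± 0.495 to 0.252 ± 0.130 FPM in WT and from 0.682 ± 0.222 to 0.238 ± 0.0586 FPM in KO (SD, n = 5 each), giving log2 fold changes of -1.77 (adjusted p = 0.00908) and -1.47 (adjusted p = 0.0387) by edgeR. The highest HFD kidney was below the lowest SFD kidney in each genotype (0.379 against 0.418 and 0.295 against 0.449 FPM). The level is low, and Cyp2j8 is a member only through the SFD groups, in which it was higher. Its KO call was lost without any single one of a1, a2, a3, a4, a5, a6, a7 or a8 (adjusted p up to 0.111 over all alternatives). Cyp2j9 fell from 22.0 ± 5.26 to 13.3 ± 2.40 FPM in WT (SD, n = 5 each), giving a log2 fold change of -0.72 (SE 0.17, adjusted p = 0.013). In KO it had 18.8 ± 2.72 and 13.1 ± 2.61 FPM, a log2 fold change of -0.52 (adjusted p = 0.0881), and the interaction of 0.21 had a 95% interval of -0.30 to 0.72. Cyp2j7 was called on average alone (-0.63, adjusted p = 0.0314), and lost its call without any single one of a1, a3, a4, a7, a8, a12, a14, a16 or a18 (adjusted p up to 0.0873 over all alternatives). Cyp2j5, the highest of them, had 1726 ± 83.6, 1665 ± 61.8, 1713 ± 93.6 and 1696 ± 81.0 FPM in WT SFD, WT HFD, KO SFD and KO HFD, with a log2 fold change of HFD of -0.05 (95% interval -0.18 to 0.07) in WT and -0.01 (-0.14 to 0.11) in KO.

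Of the 14 Cyp4 members, 3 were called in WT, 1 in KO and 5 on average, and the Cyp4a genes on chromosome 4 moved apart. Cyp4a14, a fatty acid hydroxylase known as a target of the receptor PPAR-alpha, had 39.0, 15.2, 37.0, 28.3 and 22.9 FPM in WT SFD and 50.9, 91.4, 120, 156 and 127 FPM in WT HFD kidneys. The KO SFD kidneys had 60.6, 25.0, 27.1, 10.8 and 17.2 FPM and the KO HFD kidneys 90.9, 77.4, 27.5, 106 and 46.4 FPM. The WT groups did not overlap, and in KO the SFD kidney a6 lay among the HFD kidneys. HFD gave it a log2 fold change of 1.94 (SE 0.44, adjusted p = 0.0116) in WT and 1.31 (SE 0.44, adjusted p = 0.091) in KO, and the interaction was -0.63 (95% interval -1.91 to 0.66). Cyp4a12a, which makes hydroxyeicosatetraenoic acid and is known to be higher in male than in female mice, had 294, 290, 325, 316 and 283 FPM in WT SFD and 66.1, 171, 153, 51.4 and 148 FPM in WT HFD kidneys. The KO kidneys had 192, 231, 244, 267 and 313 FPM under SFD and 171, 60.8, 114, 70.8 and 178 FPM under HFD. Neither pair of groups overlapped. The edgeR log2 fold change was -1.35 (SE 0.32, adjusted p = 0.014) in WT and -1.07 (SE 0.32, adjusted p = 0.0537) in KO. Cyp4a12b, which shares 36.2% of its windows with Cyp4a12a, had -0.84 (adjusted p = 0.137) in WT and -0.42 (adjusted p = 0.504) in KO, and the WT comparison was called without a1 and a12 (-1.09, adjusted p = 0.0188).

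The most abundant Cyp4 genes moved less. Cyp4b1 had 4460 ± 766 FPM in WT SFD and 4013 ± 358 FPM in WT HFD (SD, n = 5 each), which on the log2 scale is -0.15 (95% interval -0.36 to 0.05), and 0.02 (-0.18 to 0.23) in KO. Cyp4a10, also a PPAR-alpha target, had 0.15 (-0.20 to 0.50) and -0.13 (-0.48 to 0.22), with 12.7% of its windows shared. In the Cyp4f subfamily, Cyp4f16 (chromosome 17, 32536558 to 32551798) rose from 7.14 ± 0.715 to 12.0 ± 1.19 FPM in WT and from 7.60 ± 0.850 to 12.3 ± 2.14 FPM in KO (SD, n = 5 each), without overlap. Its log2 fold change was 0.75 (SE 0.12, adjusted p = 0.000611) and 0.70 (SE 0.12, adjusted p = 0.00101) by edgeR, and 9.8% of its windows are shared, nearly all with Cyp4f37. Its neighbours Cyp4f15 (-0.64, adjusted p = 0.0187) and Cyp4f13 (-0.27, adjusted p = 0.0259) were lower on average. The call of Cyp4f15 was lost without both a1 and a12 (adjusted p = 0.0556), and that of Cyp4f13 without any single one of a3, a4, a13, a14, a16 or a18 (adjusted p up to 0.0621 over all alternatives).

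**Figure D3:**
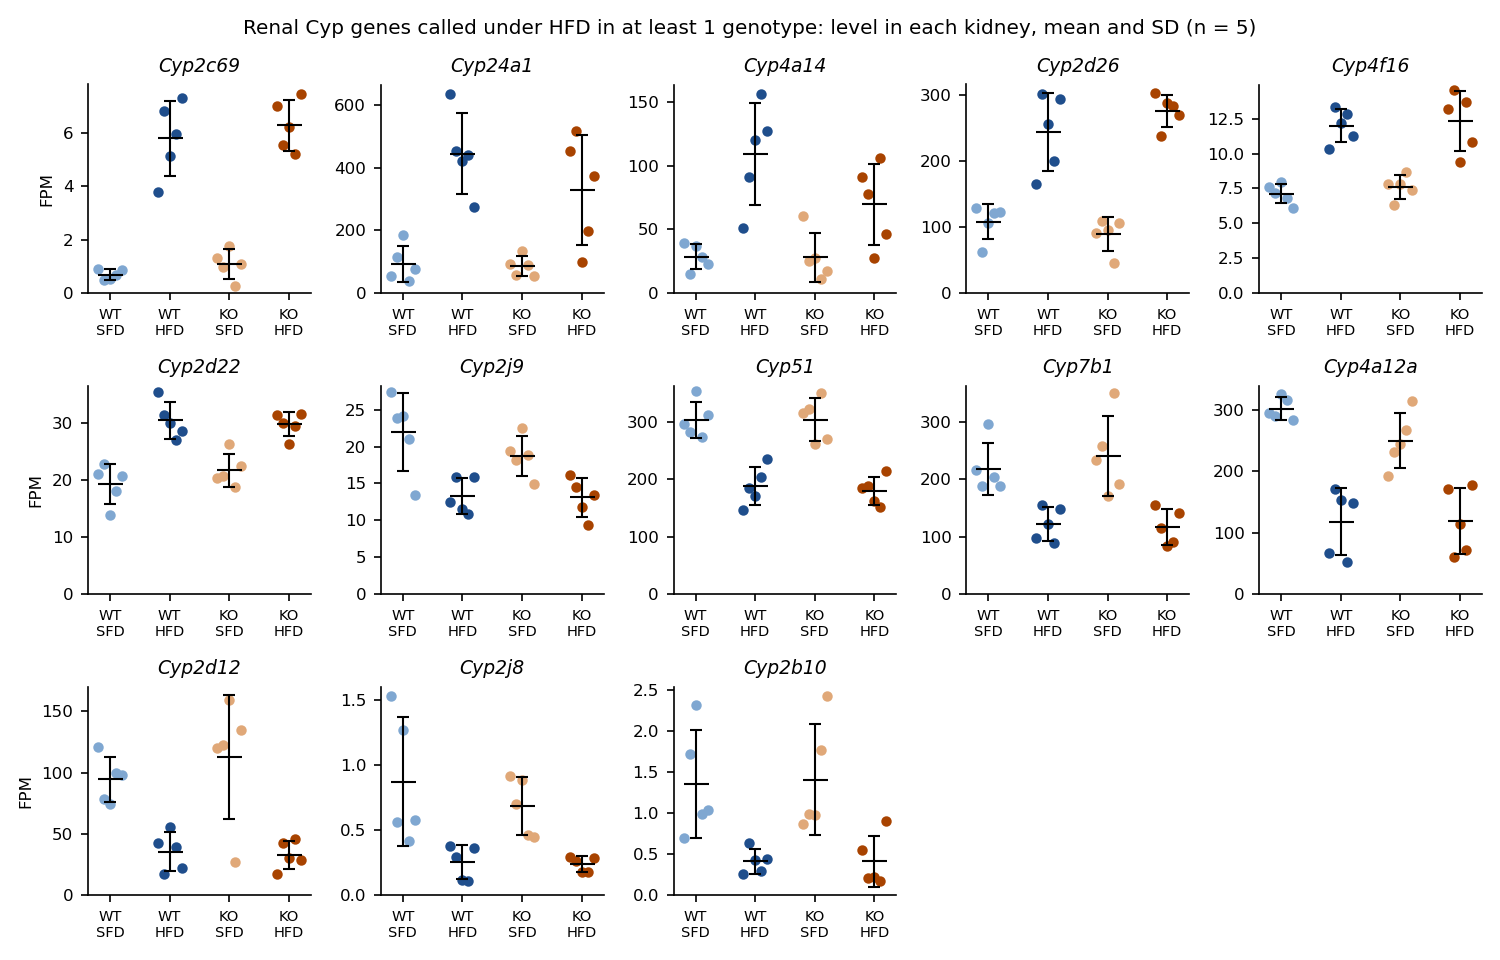
FPM of the 13 members called in WT kidneys, 1 point per kidney with the mean and SD of each group of 5, on linear axes from 0. Cyp2c69 rises from at most 1.77 FPM under SFD to at least 3.79 FPM under HFD in both genotypes, while Cyp51 falls from at least 263 to at most 235 FPM.

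In the Cyp2d subfamily, which oxidises amines and many drugs, members of a single cluster on chromosome 15 changed in opposite directions. Cyp2d26 (82790101 to 82794294) had 128, 62.5, 106, 122 and 123 FPM in WT SFD and 166, 302, 256, 200 and 294 FPM in WT HFD kidneys. In KO it had 90.5, 110, 95.3, 45.9 and 106 FPM under SFD and 304, 238, 288, 283 and 270 FPM under HFD, so the diets did not overlap in either genotype. The log2 fold change was 1.17 (SE 0.22, adjusted p = 0.00224) and 1.63 (SE 0.22, adjusted p = 0.000102) by edgeR. Cyp2d12 (82555072 to 82560403) had 121, 78.6, 74.1, 100 and 98.2 FPM in WT SFD and 42.5, 17.1, 55.8, 39.5 and 22.4 FPM in WT HFD kidneys. KO SFD kidneys had 120, 122, 159, 26.8 and 135 FPM and KO HFD kidneys 17, 42.5, 30.1, 45.4 and 28.7 FPM. The SFD kidney a9, at 26.8 FPM, was the only KO SFD kidney within the range of KO HFD. HFD gave it a log2 fold change of -1.41 (SE 0.39, adjusted p = 0.0357) in WT and -1.79 (SE 0.40, adjusted p = 0.00896) in KO. The WT call of Cyp2d12 was lost without a1 and a12 (-1.24, adjusted p = 0.0599), and without any single one of a11, a12, a14, a15, a16, a18, a19 or a20. Cyp2d22 (82370527 to 82380260) rose from 19.3 ± 3.48 to 30.5 ± 3.24 FPM in WT and from 21.7 ± 2.89 to 29.7 ± 2.1 FPM in KO (SD, n = 5 each), giving log2 fold changes of 0.66 (adjusted p = 0.00118) and 0.46 (adjusted p = 0.0197). Its KO call was lost without both a1 and a12 and without any single one of a6, a7 or a9 (adjusted p up to 0.0632 over all alternatives).

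Of the 4 Cyp2a and Cyp2b members on chromosome 7, Cyp2b10 was lower under HFD in each genotype and Cyp2a4 and Cyp2a5 on average, while Cyp2b9 was not called (averaged log2 fold change -0.22, 95% interval -0.66 to 0.21). Cyp2b10, the usual readout of the xenobiotic receptor CAR, fell from 1.35 ± 0.657 to 0.409 ± 0.148 FPM in WT and from 1.4 ± 0.674 to 0.410 ± 0.314 FPM in KO (SD, n = 5 each), giving log2 fold changes of -1.67 (adjusted p = 0.0234) and -1.74 (adjusted p = 0.0202) by edgeR. With means under 0.5 FPM in both HFD groups, Cyp2b10 is a member only through the SFD groups, in which it was higher. The WT call was lost without any single one of a11, a13, a14, a15, a17 or a18, and the KO call without a2, a3, a4, a9 or a10. Cyp2a5, a coumarin hydroxylase, had 565, 141, 197, 78.1 and 145 FPM in WT SFD and 135, 108, 67.7, 71.8 and 58.5 FPM in WT HFD kidneys. KO kidneys had 415, 150, 280, 120 and 181 FPM under SFD and 106, 138, 50.4, 61.3 and 83.1 FPM under HFD. The diets overlapped in both genotypes. It was called on average (-1.37, SE 0.33, adjusted p = 0.00843), as was Cyp2a4, a testosterone hydroxylase (-0.51, SE 0.14, adjusted p = 0.0168), and these genes share 14.4% and 11.2% of their windows, mostly with each other. Both are known as targets of the clock factor DBP. In each of the 4 groups the kidney with the highest score of clock genes was also the one with the most Cyp2a5 and the most Cyp2a4, which are a16, a11, a6 and a2 with scores of 4.79, 3.78, 4.22 and 1.90. This was seen after the values were known and was not tested. With the clock score as a covariate, 16 members were called in WT, 12 in KO and 21 on average.

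**Figure D4:**
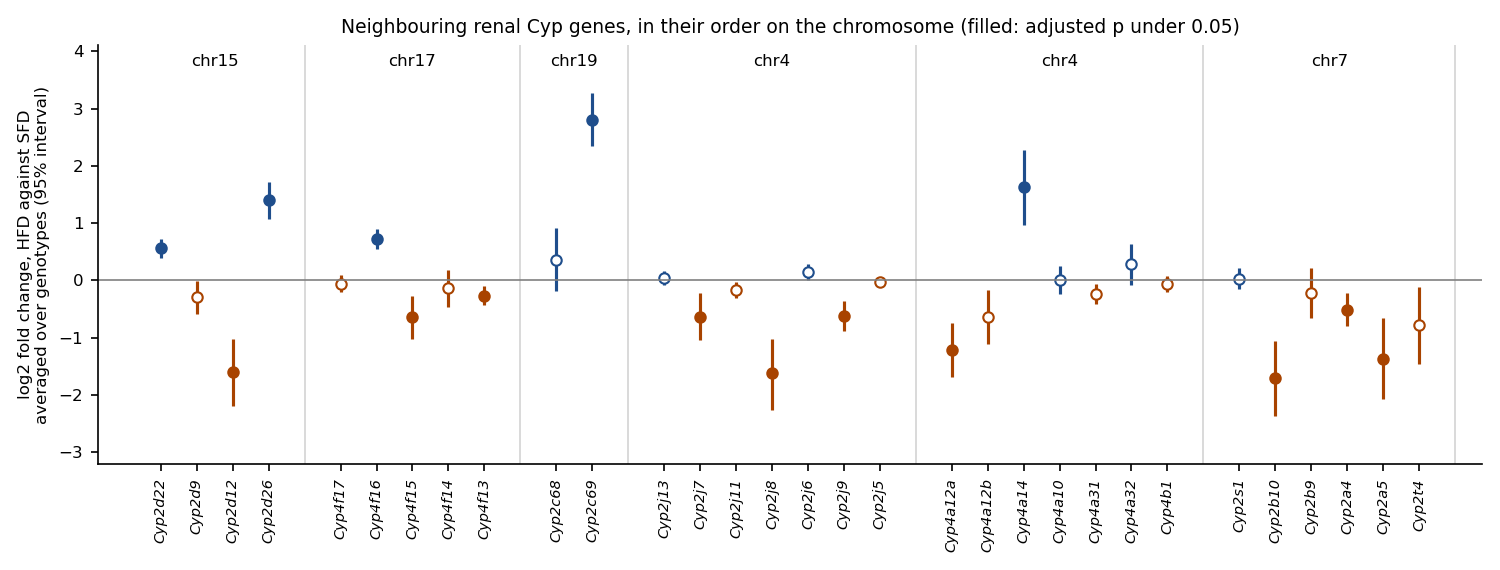
Averaged log2 fold change of HFD against SFD for the 31 members that have another member within 1000000 bases, in chromosome order within 6 clusters. On chromosome 15, Cyp2d26 (1.4) and Cyp2d22 (0.56) lie above 0 and Cyp2d12 (-1.60) below, and on chromosome 7 all 3 called members lie below 0.

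Called neighbours moved in both directions in 3 of the 6 clusters. On average, the 4 Cyp2d genes had 2 higher and 1 lower, the 5 Cyp4f genes 1 and 2, and the 7 genes of the Cyp4a and Cyp4b1 cluster 1 and 1. The 7 Cyp2j genes had 0 higher and 3 lower and the 6 genes of the Cyp2a, Cyp2b, Cyp2s and Cyp2t cluster also 0 and 3. Of the pair Cyp2c68 and Cyp2c69, 1 was higher and 0 lower. The remaining 17 members stand alone.

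Among the sterol and bile acid enzymes, 3 of 5 were called on average. Cyp51 (ENSMUSG00000001467, chromosome 5, 4081145 to 4104746, minus strand), the lanosterol demethylase of cholesterol synthesis, had 297, 282, 354, 275 and 313 FPM in WT SFD and 146, 185, 171, 204 and 235 FPM in WT HFD kidneys. Among KO kidneys it had 315, 324, 263, 351 and 271 FPM under SFD and 184, 189, 163, 151 and 214 FPM under HFD. No HFD kidney reached the level of any SFD kidney. HFD gave Cyp51 a log2 fold change of -0.69 (SE 0.12, adjusted p = 0.00105) in WT and -0.76 (SE 0.12, adjusted p = 0.000451) in KO. Cyp7b1, which hydroxylates oxysterols, had 215, 188, 295, 203 and 189 FPM in WT SFD and 97.6, 155, 122, 88.2 and 149 FPM in WT HFD kidneys. In KO it had 233, 258, 171, 350 and 192 FPM under SFD and 156, 114, 83.5, 90.2 and 141 FPM under HFD, again without overlap. Its log2 fold change was -0.83 (SE 0.21, adjusted p = 0.0211) and -1.04 (SE 0.21, adjusted p = 0.00456) by edgeR, and the WT call was lost without any single one of a11, a13, a14 or a18 (adjusted p up to 0.0855 over all alternatives). Cyp39a1, which also acts on oxysterols, was higher on average by 0.28 (adjusted p = 0.0314), a call lost without both a1 and a12 and without any single one of a2, a7, a8, a10 or a11. Cyp27a1 (0.13, 95% interval -0.00 to 0.27) and Cyp46a1 (0.01, -0.36 to 0.37) were not called.

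The bases before the start of Cyp51 are shown because cholesterol genes carry sterol regulatory elements there. The run is from RefSeq (GRCm38.p6, chr5:4104747-4104947, minus strand), with the sterol element TCACCTCA, a match to TCACCNCA, in capitals.
Cyp51: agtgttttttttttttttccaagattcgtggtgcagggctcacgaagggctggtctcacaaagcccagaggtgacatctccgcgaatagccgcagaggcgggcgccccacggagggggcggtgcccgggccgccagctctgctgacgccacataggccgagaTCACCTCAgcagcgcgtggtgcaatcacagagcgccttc
The element began 88 bases before the RefSeq start, and TCACCNCA was found on either strand in 3.61% of 32851 promoters and in 1 of the 34 members with an entry. Of 14 other genes of cholesterol synthesis tested, 5 were called lower and 0 higher in each genotype, beside 3.68% and 3.18% of all genes called lower in WT and KO, and 9 were not called in either direction. The log2 fold changes of all 14 were below 0 in both. In WT and KO respectively, Idi1 had -0.97 and -1.03 (adjusted p = 0.00151 and 0.000796) and Sqle -0.54 and -0.76 (0.00971 and 0.000628) by edgeR.

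Of the vitamin D enzymes, Cyp24a1 was called. This gene (ENSMUSG00000038567, chromosome 2, 170482708 to 170497145) encodes the mitochondrial hydroxylase that degrades active vitamin D. It had 53.9, 114, 184, 39.2 and 75.9 FPM in WT SFD and 636, 455, 420, 440 and 273 FPM in WT HFD kidneys. KO SFD kidneys had 91.4, 58.5, 133, 91.0 and 55.7 FPM and KO HFD kidneys 455, 519, 100, 198 and 374 FPM. Only the KO HFD kidney a3, at 100 FPM, lay within the SFD range of its genotype. HFD gave Cyp24a1 a log2 fold change of 2.25 (SE 0.45, adjusted p = 0.00451) in WT and 1.94 (SE 0.45, adjusted p = 0.0117) in KO, and each alternative run kept both calls. Cyp27b1, which activates vitamin D, had 7.22, 8.89, 2.45, 2.62 and 4.43 FPM in WT SFD and 10.3, 5.10, 8.50, 4.18 and 13 FPM in WT HFD kidneys. KO kidneys had 6.43, 2.77, 7.82, 2.31 and 3.90 FPM under SFD and 4.99, 5.90, 16.8, 6.79 and 20.7 FPM under HFD. The diets overlapped in both genotypes. Its averaged log2 fold change was 0.96 (SE 0.34, adjusted p = 0.061), and 1.12 (adjusted p = 0.0354) without a1 and a12. Cyp2r1, a vitamin D hydroxylase best known from liver, had -0.23 (95% interval -0.57 to 0.10), and Vdr, the vitamin D receptor, 0.12 (adjusted p = 0.426).

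The retinoic acid hydroxylases had no call by edgeR, although both had an unadjusted p under 0.05 in WT, as had 3090 of all 15943 genes. Cyp26b1 had 3.19, 4.72, 0.612, 1.86 and 1.82 FPM in WT SFD and 13.6, 7.52, 8.12, 5.51 and 13.6 FPM in WT HFD kidneys. In KO it had 2.48, 14.9, 10.2, 2.06 and 19.3 FPM under SFD and 7.61, 9, 22.4, 1.49 and 15.6 FPM under HFD. The WT groups did not overlap, while the KO groups covered nearly the same range. HFD gave Cyp26b1 a log2 fold change of 1.98 (SE 0.68, adjusted p = 0.100) in WT and 0.19 (SE 0.64, adjusted p = 0.908) in KO. Cyp26a1 had 1.17 (adjusted p = 0.199) and 0.60 (adjusted p = 0.550) at levels of 1.14 FPM or less. Its mean was 0.288 FPM in WT SFD and 0.515 FPM over all 20 kidneys. It is therefore a member through the HFD groups, in which it was higher, and its unadjusted p is no support for a rise. The orphan Cyp20a1 was not called.

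Loss of endothelial Egfr moved no member of the kidney past the threshold. KO against WT gave 0 calls among 48 members under SFD, under HFD, on average and in the interaction with diet by edgeR, as for all 15943 genes (0% called in each), and 0 by the DESeq2 Wald test. An unadjusted p under 0.05 was reached by 426, 546, 768 and 285 of all 15943 genes, and by 2, 2, 3 and 1 of the 48 members. Among these were Cyp26b1 under SFD (log2 fold change 2.00, SE 0.68, adjusted p = 1.00 by edgeR) and Cyp4a31 under HFD (-0.37, SE 0.12, adjusted p = 0.814). In the interaction, Cyp26b1 had -1.78 (95% interval -3.74 to 0.17). Intervals were narrow for the steady genes. KO against WT under SFD had 0.00 (95% interval -0.25 to 0.25) for Cyp51 and -0.01 (-0.14 to 0.12) for Cyp2j5, while the median half-width over members was 0.45 on the log2 scale. Within groups the median coefficient of variation was 22.5% over the 48 members, and it was highest for Cyp26b1 (67.8%) and Cyp27b1 (53.5%).

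Partner genes that serve or control P450 enzymes were counted beside the members. Of 5 electron donors tested in the kidney, Cyb5a was lower in WT under HFD (log2 fold change -0.36, adjusted p = 0.0191), and Por, P450 reductase, on average (-0.24, adjusted p = 0.0301). Of 18 receptors and clock factors, Nr1i2, the pregnane X receptor, was higher in both genotypes (0.68 and 0.83, adjusted p = 0.0186 and 0.005) and Rara lower in KO (-0.47, adjusted p = 0.00825). Ephx2, the soluble hydrolase that opens fatty acid epoxides, was lower in both (-0.62 and -0.41, adjusted p = 0.000982 and 0.0207). Of 19 other PPAR-alpha targets, 3 were higher and 3 lower in each genotype, with Ehhadh at -0.61 and -0.68 (adjusted p = 0.000699 and 0.000257).

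Marker genes of kidney cell types also moved with diet. The summed level of 7 proximal tubule genes, 1 of which rose and 3 fell in WT, was carried by Kap (mean 21955 FPM), which with Slc7a13 is also in the list of genes higher in males. It ranged from 30347 to 53341 FPM in WT SFD and from 20603 to 28748 FPM in WT HFD, and from 34291 to 39248 and 24371 to 30566 FPM in KO, while the median log2 fold change of the 7 genes was -0.22 in WT and -0.18 in KO. Of 4 genes of the distal nephron and collecting duct, 0 were called in WT and 1, Slc12a1, was lower in KO. A list of 6 kidney genes higher in males, chosen after values were seen, had 6 of 6 lower in WT and 4 of 6 in KO, with a mean sum of 32251 FPM in WT SFD and 18042 FPM in WT HFD. A like list of 2 genes higher in females (Slc7a12 and Prlr) had 2 of 2 higher in each genotype, with 9.14 and 72.6 FPM in WT. Of 7 liver genes, the sum ranged from 333 to 505 FPM in WT SFD and 764 to 1142 FPM in WT HFD, with Ttr the highest of them. Of the 5 liver genes tested, Apob, Fgb and Ttr were called higher under HFD in WT, and Apob and Ttr in KO, with 0 lower in either. Apoa1, a gene of chromosome 9, was at 0 in every library like the other genes there, so its 0 says nothing about liver RNA. Alb stayed between 5.5 and 18.9 FPM outside the KO SFD kidney a7, and Ahsg at 0.740 FPM or below. The kidney a7 had 70.1 FPM of Alb, 4.46 FPM of Ahsg and 1.86 FPM of Cyp2c29, and its Cyp2c69 level of 0.991 FPM lay within its group. The part of these shifts in the changes of the members was not tested.

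In the aorta the members were fewer and no diet or genotype effect was called. Cyp1b1, which oxidises oestrogens, retinoids and polycyclic hydrocarbons, led per length at 26.9 ± 6.41 FPM per kb (SD, n = 20), followed by Cyp20a1 at 17.9 ± 1.89, Cyp27a1 at 12.4 ± 2.24, Cyp2d22 at 10.00 ± 1.44 and Cyp51 at 7.25 ± 2.18 FPM per kb. The ranges of neighbours in this order overlapped. Cyp1b1 alone took 35.8% of the FPM of the 22 members. The highest members of the other aortic subfamilies ran from Cyp4f13 (6.33 FPM per kb), Cyp4b1 (4.92), Cyp4v3 (4.60), Cyp26b1 (3.30), Cyp39a1 (3.21) and Cyp2j6 (2.99) to Cyp2u1 (1.10), Cyp46a1 (0.698), Cyp2r1 (0.612), Cyp2t4 (0.529), Cyp2b10 (0.376) and Cyp7b1 (0.372).

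Cyp1b1 in the aorta had 150, 131, 109, 159 and 208 FPM in WT SFD and 108, 133, 117, 154 and 176 FPM in WT HFD. KO aortas had 95.8, 150, 176, 190 and 203 FPM under SFD and 105, 180, 192, 207 and 196 FPM under HFD. All groups overlapped. HFD gave a log2 fold change of -0.14 (95% interval -0.59 to 0.31) in WT and 0.11 (-0.34 to 0.56) in KO. KO against WT had 0.10 (-0.35 to 0.55) under SFD and 0.36 (-0.09 to 0.81) under HFD. The lowest KO values came from the aortas R-11 and R-16, which also had the largest sums of 5 blood genes (80124 and 61111 FPM, 417 to 44483 in the others) and of lymphoid genes (37.7 and 74.3 FPM). These aortas had the highest Cyp4f18, a leukotriene hydroxylase of leukocytes, in their groups (1.95 and 4.70 FPM). Leaving both out gave 0 called members in every comparison.

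The edgeR test called 0 of 22 members in each of the 7 comparisons of the aorta, and so did the DESeq2 Wald test, while 0.0132% of 15122 genes were called for HFD in WT, 0.0529% for HFD on average and 0.0198% for KO on average, and 0% in the other 4 comparisons. An unadjusted p under 0.05 was reached by 0 members for HFD in WT, 1 in KO, 2 on average and 0 in the comparisons with KO. For HFD in WT, in KO and on average, 394, 690 and 1013 of all 15122 genes reached it. Cyp2t4, a P450 of little known function, had 0.732 ± 0.268 FPM in WT SFD and 1.04 ± 0.383 FPM in WT HFD, and 0.615 ± 0.239 and 1.10 ± 0.117 FPM in KO (SD, n = 5 each). Its averaged log2 fold change was 0.68 (SE 0.23, adjusted p = 0.487), and that of Cyp26b1 0.35 (SE 0.16, adjusted p = 0.743). For Cyp51, lower in the kidney under HFD, the aorta had -0.23 (95% interval -0.78 to 0.33) in WT and -0.01 (-0.57 to 0.54) in KO, with 22.8 to 41.5 FPM in WT SFD and 21.5 to 39.7 FPM in WT HFD. The median half-width of the intervals was 0.47 in 1 genotype and 0.33 on average.

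**Figure D5:**
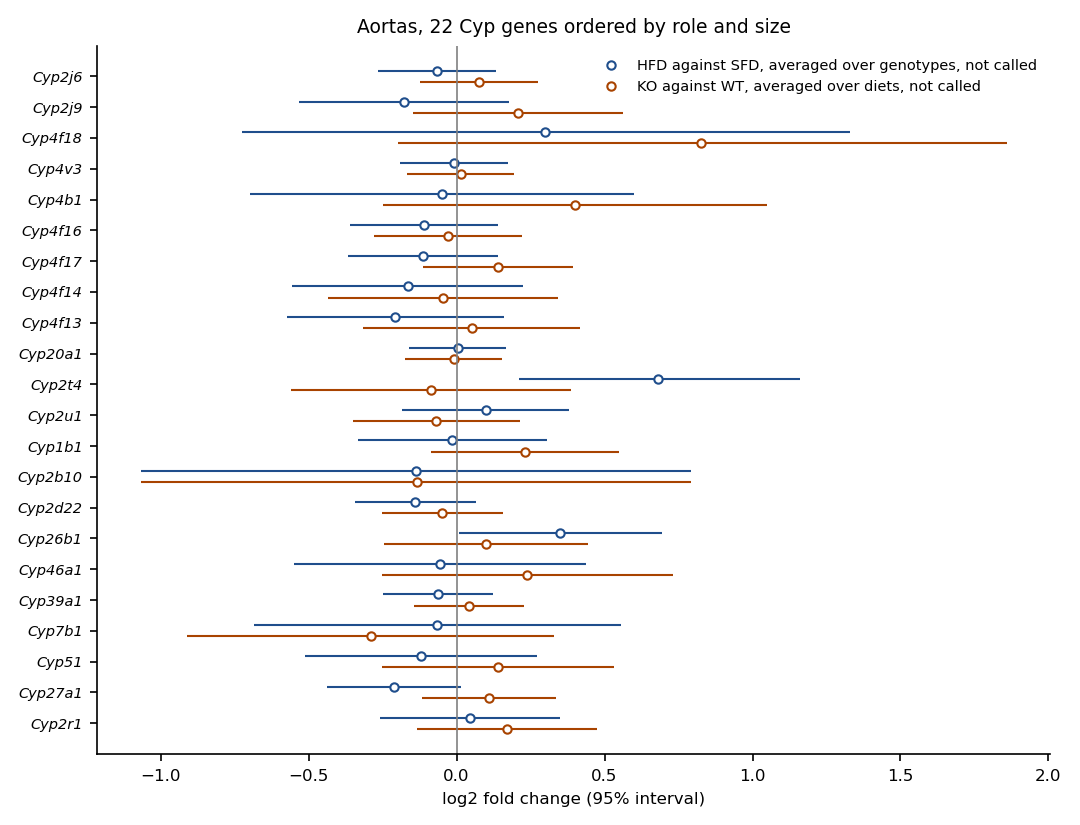
Log2 fold change with 95% interval for the 22 aortic members, for HFD against SFD averaged over genotypes and for KO against WT averaged over diets. The largest diet value is that of Cyp2t4 (0.68, adjusted p = 0.487), and 0 members have an adjusted p under 0.05.

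The tissues were set side by side in the WT SFD group as a description with no test, since the tables were normalised separately. Of the 22 genes that are members in both, 7 had every kidney above every aorta, 7 every kidney below, and 8 overlapped. Higher in the kidney were Cyp4b1 (4460 against 8.78 FPM), Cyp7b1 (218 against 0.909), Cyp51 (304 against 32.9), Cyp2j9, Cyp2j6, Cyp27a1 and Cyp4f13. Higher in the aorta were Cyp1b1 (152 FPM against 23.9 in the kidney), Cyp26b1 (14.7 against 2.44), Cyp4v3 (17.8 against 4.50), Cyp20a1, Cyp2d22, Cyp4f16 and Cyp39a1. Of the 26 members of the kidney alone, 14 were at 0 counts in all 5 WT SFD aortas, among them Cyp24a1, Cyp2c69, Cyp2d12, Cyp2j5, Cyp4a12a and Cyp4a14.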

How the data were processed

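RNA of 20 aortas and 20 kidneys was analysed from whole-number counts per gene, which the authors deposited without normalization or filter. The submitters' processing notes name HISAT2 2.1.0, featureCounts and mm10, while the study's methods name TopHat2. The strand setting is not given in the sources used here. Groups came from the labels, and 0 columns were left unused. Total counts of 17520161 to 48833447 per library set the precision. For each tissue, 1 model of all 20 libraries was fitted with edgeR 4.0.16 under R 4.3.3. It used TMM, the filterByExpr filter on groups and the robust quasi-likelihood test, and p-values were adjusted over all genes by Benjamini and Hochberg. All 48 and 22 members passed the filter. SE is the unshrunk log2 fold change over the root of F, and intervals are 95% from the t distribution. p-values weigh the difference between groups against the spread between libraries within them. The test takes the libraries as independent, which a1 and a12, and R-1 and R-12, may not be. The biological coefficient of variation was 22.3% in kidneys and 29.0% in aortas.

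Members named are those called in any comparison, the highest per exon length in each subfamily, all vitamin D, retinoic acid and sterol enzymes, and genes next to the threshold. Partner genes were named where called, except some that are not reported here. The members and lists were chosen with earlier results of these data known. Alternatives were DESeq2 1.42.0 (size factors, Wald test), no filter, the study's thresholds, fits of the compared groups alone, other member thresholds, clock or adipocyte scores as covariates, leaving out near-identical libraries, and leaving out each replicate. Leaving out kidneys a8, a9 and a17, or aortas R-11 and R-16, and counting calls among members of at least 1 CPM were added after seeing the data. Windows of 100 bases of GENCODE M21 transcripts were compared between genes. Promoters are the RefSeq windows of 250 bases before the start, found for 34 of 48 members, less the bases GENCODE places inside the gene. Tests were tested on simulated data.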

Additional observations from a re-analysis of the deposited data

Results flagged for a closer look

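In 144 groups of 5 libraries, 9 levels lay apart from the other 4 by more than 0.71 of the range of the group, Dixon's 95% limit, which chance gives in about 1 in 20 groups. In the kidney, the WT SFD replicate a16 had 565 FPM of Cyp2a5 (others 78.1 to 197) and 39.4 FPM of Cyp2c23 (others 21.7 to 26.2), and the WT SFD replicate a18 had 295 FPM of Cyp7b1 (others 188 to 215). In the aorta, the KO HFD replicate R-16 had 105 FPM of Cyp1b1 (others 180 to 207) and 1.58 FPM of Cyp7b1 (others 0.395 to 0.633), and the KO SFD replicate R-11 had 40.2 FPM of Cyp27a1 (others 24.7 to 28.5). R-11 and R-16 are the aortas with the largest sums of blood and lymphoid genes. Among WT SFD aortas, R-5 had 23.1 FPM of Cyp26b1 (others 11 to 13.7), R-4 had 0.858 FPM of Cyp2r1 (others 1.27 to 1.37) and R-2 had 1.89 FPM of Cyp7b1 (others 0.423 to 0.790).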

How the results depend on the processing

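The number of members called for HFD in kidneys was 10 to 14 in WT, 8 to 10 in KO and 18 to 22 on average when any single library was left out, and 10 to 16, 7 to 13 and 11 to 24 under the other alternatives. The averaged count moved by more than 1.5 times under the study's thresholds alone, with 11 members against 20, because these ask for a larger fold and level. The counts of 0 for KO, the interaction and every aortic comparison stayed at 0 under every alternative run. Of 910 values of called members under alternatives, 836 kept their call, 74 lost it and 0 changed sign. Both calls of Cyp2c69, Cyp24a1, Cyp51, Cyp2d26 and Cyp4f16 were kept throughout. Without kidneys a8, a9 and a17, a choice made after seeing the data, 12, 8 and 19 members were called, and Cyp2b10 (both genotypes), Cyp2j8 (KO), Cyp2j7 and Cyp39a1 (on average) lost their calls. The part of depth in the lost calls of low members such as Cyp2j8 and Cyp2b10 was not tested. No paired analysis was possible because the groups of a tissue share no replicate numbers.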
